A study of Homo sapiens with 16 samples.

Results

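The miR-106b-25 cluster is a group of 3 miRNA genes, MIR106B, MIR93 and MIR25, that lie inside MCM7 on chromosome 7 and give 6 mature miRNAs. Its members were chosen by name, as both arms of each hairpin, and all 6 had a probe among the 2565 miRNA probes of the array. Levels were measured in OE19, a human esophageal adenocarcinoma cell line, on 8 arrays of cells cultured without telmisartan (control) and 8 arrays of cells given telmisartan at 100 μM, both for 48 h. Telmisartan is an angiotensin II type 1 receptor blocker used against hypertension. The cells of both groups were the same unmodified line in serum-containing medium, and the sources used here do not say whether control cells received the vehicle. Nor do they tell whether each array had its own culture. The p-values therefore cover the spread among these arrays alone, and part of it may be technical.

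The 3 hairpins are transcribed together with MCM7, which encodes a subunit of the helicase that unwinds DNA at replication origins, and E2F factors are known to drive this gene in proliferating cells. Each hairpin is cut into a 5p and a 3p strand, and the strand kept in the silencing complex pairs with its targets mainly through its seed, the stretch near the 5′ end. In human gastric cancer cells miR-106b and miR-93 are known to repress CDKN1A, the cell cycle inhibitor p21, and miR-25 is known to repress BCL2L11, the pro-apoptotic protein BIM.

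The mature sequences show which members can be compared as relatives. They were taken from RefSeq (GRCh38.p14), all 6 members were matched by name, and capitals mark the seed, bases 2 to 8 from the 5′ end. In the order in which they are transcribed from the minus strand they are:
hsa-miR-106b-5p, chr7:100094043-100094063: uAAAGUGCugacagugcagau
hsa-miR-106b-3p, chr7:100094002-100094023: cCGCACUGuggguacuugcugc
hsa-miR-93-5p, chr7:100093815-100093837: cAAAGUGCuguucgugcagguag
hsa-miR-93-3p, chr7:100093777-100093798: aCUGCUGAgcuagcacuucccg
hsa-miR-25-5p, chr7:100093610-100093630: aGGCGGAGacuugggcaauug
hsa-miR-25-3p, chr7:100093571-100093592: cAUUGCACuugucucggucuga

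The major strands of the first 2 hairpins, miR-106b-5p and miR-93-5p, carried 1 seed, which 8 miRNAs on the array had in all. The major strand of the last, miR-25-3p, carried another, found in 6. The seeds of miR-106b-3p, miR-93-3p and miR-25-5p were each found in no other miRNA of the array that had a sequence in the table. The relatives with the closest sequences that were detected on all 16 arrays are shown because their probes could share signal with those of the cluster, and because they give the same seeds from other loci:
miR-17-5p, chr13:91350618-91350640: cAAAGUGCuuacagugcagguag
miR-20a-5p, chr13:91351072-91351094: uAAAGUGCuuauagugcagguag
miR-106a-5p, chrX:134170244-134170266: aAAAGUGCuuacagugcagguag
miR-20b-5p, chrX:134169850-134169872: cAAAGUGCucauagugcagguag
miR-92a-3p, chr13:91351361-91351382: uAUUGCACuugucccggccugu
miR-92b-3p, chr1:155195237-155195258: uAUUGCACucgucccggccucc

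Counted as single-base changes, insertions or deletions, miR-93-5p was 3 from miR-17-5p and from miR-20b-5p but 7 from its cluster neighbour miR-106b-5p. miR-106b-5p was 5 from miR-17-5p, miR-20a-5p and miR-106a-5p. miR-25-3p was 4 from miR-92a-3p and 6 from miR-92b-3p. Each miRNA was measured by 1 probe, and shared signal between probes of such close sequences was not tested.

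The 3 hairpin genes spanned 515 bases (chr7:100093560-100094074) within the 8670 bases of MCM7 (chr7:100092728-100101397), and began 7323, 7550 and 7754 bases downstream of its start. The reference tables used here hold no exons, and the MCM7 transcript was not measured on these arrays. The 250 bases upstream of the MCM7 start (chr7:100101398-100101647, minus strand) are shown because the whole cluster lies downstream of them, with E2F-type letters in capitals:
MCM7 promoter: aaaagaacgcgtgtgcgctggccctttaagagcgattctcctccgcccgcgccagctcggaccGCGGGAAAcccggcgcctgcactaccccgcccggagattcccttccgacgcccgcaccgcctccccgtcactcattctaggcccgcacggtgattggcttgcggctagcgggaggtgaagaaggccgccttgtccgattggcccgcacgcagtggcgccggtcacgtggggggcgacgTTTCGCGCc
The letters searched, on both strands, were TTTCCCGC, TTTGGCGC, TTTCGCGC and TTTGCCGC, which do not overlap here. One match began 187 bases upstream of the start, as the reverse complement GCGGGAAA, and the other 9 bases upstream. Of 35116 promoter windows of this length, 2.79% held at least 1 of these letters, and the windows of the other 2 MCM7 starts in the table held none.

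The arrays differed in background and in the number of probes detected. Backgrounds were 14.9 to 32.5 on control arrays and 19.9 to 33.6 on telmisartan arrays, and 454 to 1621 and 458 to 1885 probes were detected. Of the 2565 probes, 382 were detected on all 16 arrays. The authors' normalized intensity values cover these 382 and are linear, with a median of 37.7 on each array. Because they were quantile normalized, a value gives the rank of a probe on its array. The epithelial miR-200c-3p and miR-141-3p and the columnar gut miR-192-5p, miR-194-5p and miR-215-5p were detected on all 16 arrays, as was 1 of 2 squamous markers, miR-203a-3p. Of 10 markers of other cell types only the endothelial miR-126-3p was. Arrays numbered 1 to 4 had higher backgrounds (27.7 ± 4.0 in control and 29.7 ± 4.8 in telmisartan, SD, n = 4) than arrays 5 to 8 (20.1 ± 3.7 and 21.3 ± 1.9). The labels name no batch, and the values within each set are given beside the pooled ones.

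On the authors' normalized values 3 of the 4 members measured on every array fell with telmisartan, and none rose. These were the 3 major strands, miR-106b-5p, miR-93-5p and miR-25-3p, at 77.8%, 83.1% and 80.0% of their control levels. By limma with Benjamini-Hochberg adjustment, 7.33% of the 382 miRNAs were lower and 9.69% were higher, 17% in all. The changes of all 4 members were negative both within arrays 1 to 4 and within arrays 5 to 8, as were those of 26.4% of the 382. By the exact Mann-Whitney test, two-sided, 2 of the 4 were lower, miR-93-5p and miR-25-3p, against 6.02% of the 382. The median log2 fold change was -0.34 over the 4 members and -0.01 over all 382. By size of fall the 4 members ranked 42nd (miR-106b-5p), 66th (miR-93-5p), 50th (miR-25-3p) and 32nd (miR-106b-3p) of 382, so larger changes were common on these arrays. The falls depended on how the arrays were scaled, as described below. A lower level in each cell and fewer cells that hold the miRNA cannot be told apart in these bulk samples.

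hsa-miR-25-3p had the smallest standard error of the 4. Its normalized intensity was 405 at the lowest, 446 at the median and 498 at the highest on the 8 control arrays. On the 8 telmisartan arrays these were 329, 358 and 372. Every telmisartan array lay below every control array, which held for 1.31% of the 382 miRNAs. In rank from the top it stood 38th to 45th on control arrays and 48th to 54th on telmisartan arrays. The log2 fold change was -0.32 (SE 0.06, 95% interval -0.44 to -0.20, limma adjusted p = 0.00106), and by the exact Mann-Whitney test, two-sided, the adjusted p was 0.00424. The fall was also past the threshold within arrays 1 to 4 (-0.36, limma adjusted p = 0.0110) and within arrays 5 to 8 (-0.28, limma adjusted p = 0.0281), where 18.3% and 7.59% of miRNAs were lower. It stayed past the threshold whichever single array was left out (limma adjusted p = 0.00138 to 0.00289).

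On the authors' normalized values hsa-miR-106b-5p split the telmisartan arrays. Its normalized intensity on control arrays was 652 at the lowest, 681 at the median and 760 at the highest. On telmisartan arrays 1 to 3 it was 681, 652 and 681, inside the control range. On telmisartan arrays 4 to 8 it was 463, 415, 446, 520 and 520, all below the lowest control array. The spread on the log2 scale was accordingly 0.29 (SD, n = 8) with telmisartan against 0.07 in controls. The log2 fold change was -0.36 (SE 0.11, 95% interval -0.59 to -0.14, limma adjusted p = 0.0275). Within arrays 1 to 4 it was -0.17 (limma adjusted p = 0.354) and within arrays 5 to 8 it was -0.55 (limma adjusted p = 0.0101). The difference between these sets, -0.38 (SE 0.17), was itself not past the threshold (limma adjusted p = 0.0898), while 35.3% of the 382 miRNAs had such a difference. The fall lost significance when control array 1 or 8 or telmisartan array 4, 5 or 6 was left out, with log2 fold changes of -0.36 to -0.31 and limma adjusted p-values from 0.0505 to 0.0566.

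hsa-miR-93-5p, which has the same seed, was 477 at the lowest, 614 at the median and 681 at the highest on control arrays and 426, 498 and 593 on telmisartan arrays. Only telmisartan array 6 lay below all controls, of which array 7, at 477, lay apart from the other 7 (593 to 681). The log2 fold change was -0.27 (SE 0.08, 95% interval -0.44 to -0.10, limma adjusted p = 0.0296). It was of similar size in arrays 1 to 4 (-0.25) and arrays 5 to 8 (-0.28), though neither set alone passed the threshold (limma adjusted p = 0.0501 and 0.0858). The call was lost when control array 1, 2, 3 or 8 or telmisartan array 3, 5, 6 or 7 was left out (limma adjusted p = 0.0503 to 0.0626).

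hsa-miR-106b-3p, the other strand of the first hairpin, was a dim probe. Its normalized intensity was 12.5 at the lowest, 15.6 at the median and 29.6 at the highest on control arrays and 10.4, 12.0 and 15.8 on telmisartan arrays, so the groups overlapped. The highest value was that of control array 3. The log2 fold change was -0.43 (SE 0.16, 95% interval -0.77 to -0.09), with a limma adjusted p of 0.0812. With the replicate number as a block the same change passed the threshold (limma adjusted p = 0.0250), as it did with the 2 sets of arrays as a block (limma adjusted p = 0.0221) and, without either, when control array 5 was left out (-0.49, limma adjusted p = 0.0453). In these fits, in that order, 9.95%, 12.8% and 8.12% of the 382 miRNAs were lower, against 7.33% in the main fit. Within arrays 1 to 4 the log2 fold change of miR-106b-3p was -0.59 and within arrays 5 to 8 it was -0.28 (limma adjusted p = 0.0621 and 0.0853).

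**Figure D1:**
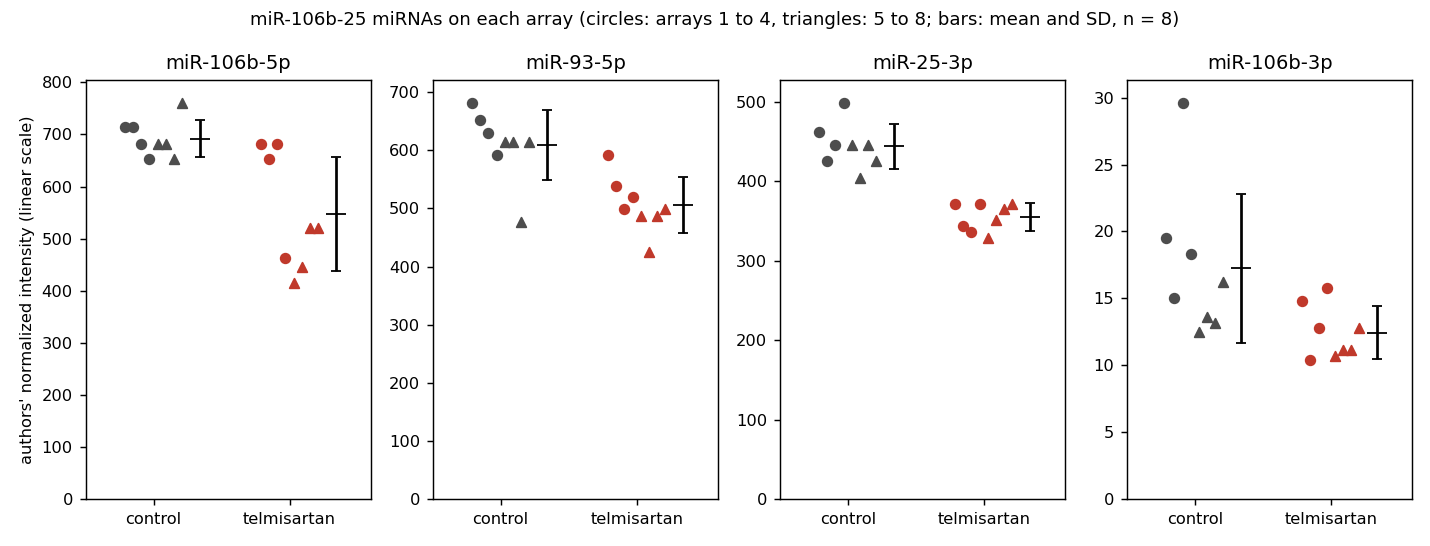
Authors' normalized intensity (linear scale) of the 4 members measured on every array, 1 point per array, with the mean and SD of 8 arrays per group beside them. For miR-25-3p the telmisartan arrays (329 to 372) lay under all control arrays (405 to 498), whereas for miR-106b-5p telmisartan arrays 1 to 3 lay within the control range.

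**Figure D2:**
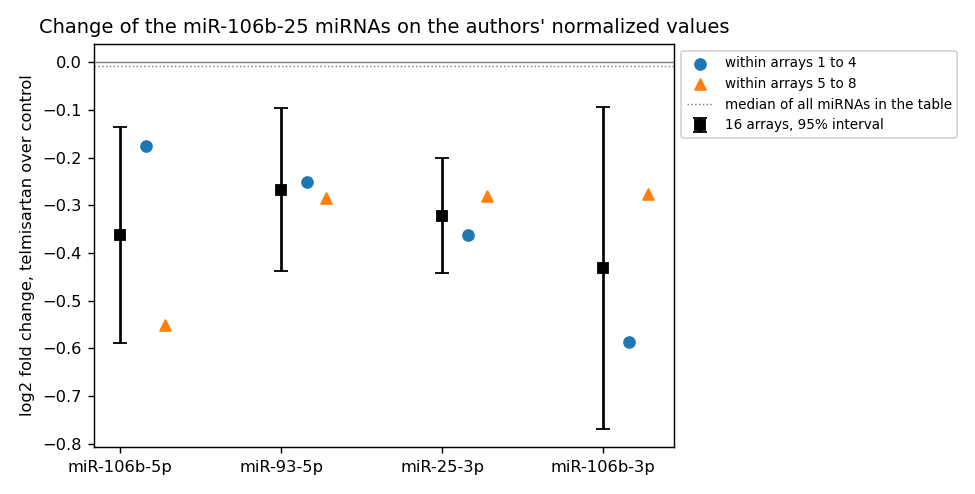
Log2 fold change, telmisartan over control, of each member, with the limma 95% interval over 16 arrays (squares) and the change within arrays 1 to 4 (circles) and 5 to 8 (triangles). All 4 lay below the median of the 382 miRNAs (dotted line, -0.01), and miR-106b-5p had the farthest separated sets among the major strands (-0.17 and -0.55).

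The 3 major strands come from 1 transcript, so it was asked whether they changed unequally. Within each array the log2 value of miR-106b-5p was subtracted from that of every other miRNA. miR-93-5p then changed by 0.10 (95% interval -0.17 to 0.36, limma adjusted p = 0.563) and miR-25-3p by 0.04 (-0.25 to 0.34, limma adjusted p = 0.822). For miR-106b-3p the value was -0.07 (-0.46 to 0.32, limma adjusted p = 0.774). None of the 3 passed the threshold, against 2.1% of 381 miRNAs lower and 31.5% higher relative to miR-106b-5p. The intervals still leave room for a difference of about the size of the falls themselves. Within the sets these values changed sign. They were -0.08, -0.19 and -0.41 for miR-93-5p, miR-25-3p and miR-106b-3p in arrays 1 to 4, and 0.27 for each in arrays 5 to 8, where miR-106b-5p had the larger fall. For miR-106b-3p the sign also turned without control array 3 (0.05) or telmisartan array 2 (0.01). On unscaled intensities with the background left in it turned to 0.31 and passed the threshold (limma adjusted p = 0.0237). With the background subtracted it was 0.10 and did not pass (limma adjusted p = 0.621). The shares of all miRNAs passing in these 2 settings are not given here.

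Across the 16 arrays the members were positively correlated on the log2 normalized scale, with Pearson's r from 0.45 (miR-106b-5p with miR-106b-3p) to 0.75 (miR-106b-5p with miR-93-5p). These r values hold the difference between the groups and the shared normalization of each array. Within groups (n = 8 each, not tested), r for miR-106b-5p and miR-93-5p was 0.57 in controls and 0.66 with telmisartan. For miR-106b-5p and miR-25-3p the values were -0.43 and 0.06, and for miR-93-5p and miR-25-3p they were -0.07 and 0.31. miR-106b-3p had 0.07 and 0.19 with miR-106b-5p, 0.39 and 0.50 with miR-93-5p, and 0.34 and 0.64 with miR-25-3p.

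The 2 remaining strands, hsa-miR-93-3p and hsa-miR-25-5p, stood at the edge of detection and were not in the authors' table. miR-93-3p was detected on 8 control arrays and on 7 telmisartan arrays. miR-25-5p was detected on 8 control and 6 telmisartan arrays, missing on arrays 3 and 7. These 2 arrays had 529 and 458 detected probes. They also had the largest SDs of the blank spots (2.17 and 2.63), which raise the detection level. The raw intensity of miR-25-5p exceeded the background by 0.781 and 1.96 on them. Control array 4, with 454, did detect miR-25-5p, at 1.02 times the detection level. The part of the detection level in the missing calls was not tested. By Fisher's exact test, two-sided, the difference in detection was not past the threshold (adjusted p = 1 for both), and it was for 0% of 1840 partly detected probes. With the detection level raised from 2 to 3 SD above the blank spots, miR-93-3p was detected on 7 and 6 arrays, and miR-25-5p on 6 and 5.

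Where it was detected, the background-subtracted intensity of miR-93-3p was 3.79 to 13.6 in controls and 4.41 to 8.10 with telmisartan. Its raw intensity was 1.00 to 1.55 times the detection level of the array in controls and 0.94 to 1.30 times with telmisartan. That of miR-25-5p was 3.70 to 12.4 after background subtraction in controls and 3.04 to 5.43 with telmisartan. Both ranges overlapped. In a fit over the 646 probes detected on at least 6 of 8 arrays of a group, with undetected values at the floor, the log2 fold changes were -0.33 (SE 0.59) and -0.50 (SE 0.51), each with a limma adjusted p of 1. In that fit 0% of miRNAs passed the threshold (7 had an unadjusted limma p under 0.05). With normexp at an offset of 50, fitted to the same 646 probes, miR-25-5p was lower (-0.084, limma adjusted p = 0.0413), and 4.18% of miRNAs were lower. miR-93-3p was not past the threshold in that fit (-0.067, limma adjusted p = 0.0628). The offset is larger than the background-subtracted intensity of either strand wherever it was detected. The sizes of these 2 changes are therefore not comparable with the others.

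**Figure D3:**
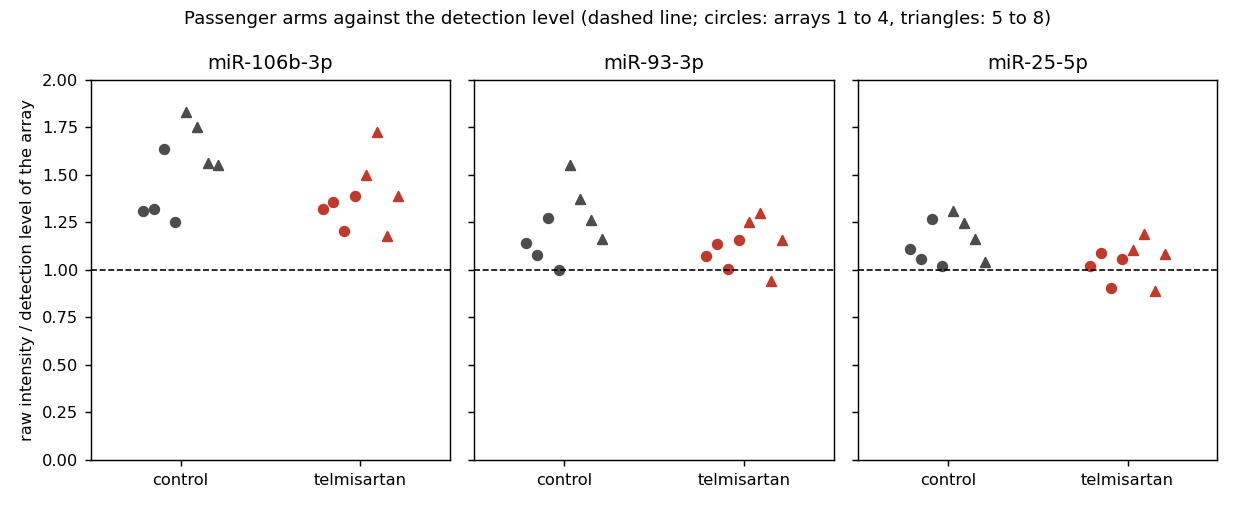
Raw intensity divided by the detection level of the array (dashed line at 1) for the 3 minor strands, 1 point per array. miR-106b-3p stayed above the level on all 16 arrays, whereas miR-93-3p was under it on 1 telmisartan array and miR-25-5p on 2.

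The falls were tested under other scalings of the same intensities. With quantile normalization over the probes detected on all arrays, all 3 major strands passed the threshold whether the background was subtracted or left in. Of the 382 miRNAs, 7.33% were lower with it subtracted and 7.07% with it left in. The 3 strands also passed with normexp at an offset of 50 and quantile normalization over all miRNA probes. That fit tested 646 probes, of which 4.18% were lower. For miR-25-3p the limma adjusted p was 0.000103 with the background left in and 6.91e-05 with normexp. With median scaling 0 of 4 members passed, where 3.66% of the 382 miRNAs were lower. The log2 fold changes were then -0.57, -0.36, -0.32 and -0.47 for miR-106b-5p, miR-93-5p, miR-25-3p and miR-106b-3p, while the standard errors of the 3 major strands went from 0.11, 0.08 and 0.06 to 0.19, 0.21 and 0.13. Without any scaling the changes were -0.38, -0.18, -0.13 and -0.28, and 0 of 4 passed, where 3.14% of the 382 were lower. The median of all 382 miRNAs then moved to 0.18, so relative to it the changes were -0.56, -0.35, -0.31 and -0.46.

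The intensities themselves show this overlap. After background subtraction and before scaling, miR-25-3p was 331 to 558 on control arrays and 280 to 431 on telmisartan arrays, and 1 telmisartan array lay below all controls, against 8 after quantile normalization. miR-106b-5p was 565 to 847 and 452 to 694. On either scale 5 telmisartan arrays lay below all controls, but not the same ones. Before scaling they were arrays 2, 4, 5, 6 and 8, and on the authors' normalized values arrays 4 to 8. With median scaling 2 telmisartan arrays lay below all controls. miR-93-5p was 447 to 783 and 431 to 629. With quantile normalization over whatever probes each array detected, all 4 changes stayed negative (-0.21, -0.11, -0.21 and -0.14, in the order above), while the standard errors rose to 0.46 or higher and each limma adjusted p was 1. Within arrays 1 to 4 that scaling gave positive values for all 4 (0.41, 0.34, 0.24 and 0.42), against 0.90 for the median miRNA tested. Within arrays 5 to 8 it gave -0.82, -0.56, -0.66 and -0.71, against -0.45 for the median.

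The scaling also set which arrays carried the larger change of miR-106b-5p. With median scaling arrays 1 to 4 gave -0.84 and arrays 5 to 8 gave -0.29, the opposite order to that on the authors' values. That difference, 0.54, was not past the threshold (limma adjusted p = 0.0553). For miR-93-5p median scaling gave -0.72 and -0.01, and this difference of 0.71 did pass (limma adjusted p = 0.0215), though on the authors' values it was -0.03 (limma adjusted p = 0.858).

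**Figure D4:**
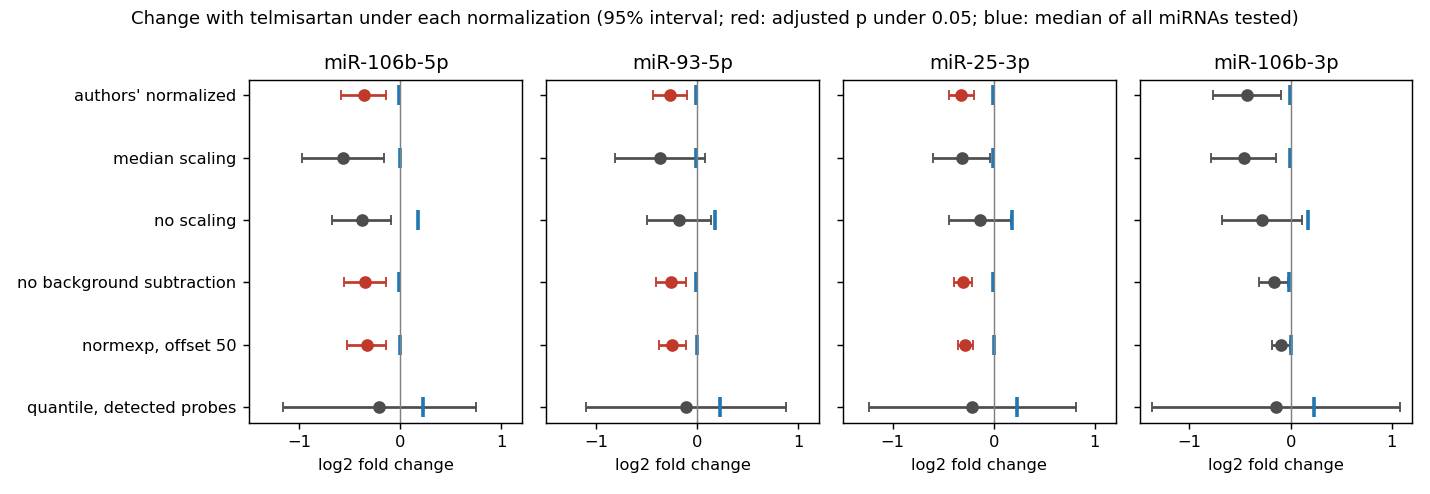
Log2 fold change, telmisartan over control, of the 4 members under 6 normalizations, with limma 95% intervals, in red where the adjusted p was under 0.05, and the median of all miRNAs tested as a blue mark. All points lay below 0 and below that mark, and the 3 major strands passed the threshold in 3 of the 6.

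The seed shared by miR-106b-5p and miR-93-5p is also that of miR-17-5p, miR-20a-5p, miR-106a-5p and miR-20b-5p, which come from the paralogous miR-17-92 and miR-106a-363 clusters. Outside the cluster 6 miRNAs on the array had this seed and 4 were detected on all arrays, of which 0 passed the threshold, against 7.33% of the 382 lower and 17% in either direction. Their log2 fold changes were -0.37 (miR-17-5p), -0.39 (miR-20a-5p), -0.33 (miR-106a-5p) and -0.57 (miR-20b-5p), with limma adjusted p-values from 0.195 to 0.482. Their median, -0.38, stood beside -0.36 for miR-106b-5p and -0.27 for miR-93-5p, but their standard errors were larger (0.20 to 0.30 against 0.11 and 0.08). In arrays 1 to 4 the 4 relatives changed by -0.92 to -0.59, and in arrays 5 to 8 by -0.22 to 0.03. On the same authors' values miR-93-5p changed by -0.25 and -0.28, and miR-106b-5p by -0.17 and -0.55. With median scaling miR-93-5p changed by -0.72 and -0.01, and miR-106b-5p by -0.84 and -0.29. With the background left in before quantile normalization, they changed by -0.24 and -0.27, and by -0.17 and -0.53. The changes of the relatives are given here on the authors' values only, so the contrast with them was not examined under other scalings. The difference between the sets was past the threshold for 0 of the 4 relatives (limma adjusted p = 0.0553 to 0.132). Relative to miR-106b-5p on the same array they changed by -0.20 to 0.04, and 0 of 4 passed the threshold (limma adjusted p = 0.555 to 0.976). miR-519d-3p and miR-526b-3p, the other two with this seed, were detected on 5 arrays each.

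The seed of miR-25-3p is shared with 5 miRNAs on the array, of which miR-92a-3p and miR-92b-3p were detected on all arrays. Their log2 fold changes were -0.04 (SE 0.11, limma adjusted p = 0.915) for miR-92a-3p and -0.03 (limma adjusted p = 0.965) for miR-92b-3p, against -0.32 for miR-25-3p. Whether they differed from miR-25-3p was tested within each array. Relative to miR-25-3p, miR-92a-3p changed by 0.28 (95% interval 0.02 to 0.55, limma adjusted p = 0.0805), and 6 of 8 telmisartan arrays lay above all controls. miR-92b-3p changed by 0.30 (-0.06 to 0.65, limma adjusted p = 0.175). Neither difference passed the threshold, which 37.8% of 381 miRNAs passed in the higher and 2.62% in the lower direction. On unscaled intensities with the background left in, both did (0.30 and 0.31, limma adjusted p = 0.0358 and 0.0316). With the background subtracted miR-92b-3p did (0.35, limma adjusted p = 0.0392) and miR-92a-3p was at 0.32 (limma adjusted p = 0.0749). The shares of all miRNAs passing in these unscaled settings are not given here. The comparison with miR-25-3p was chosen after seeing the data. Without scaling and with the background subtracted, the change of miR-25-3p minus that of the median miRNA was -0.31. The median miRNA thus also rose relative to miR-25-3p, by about as much as miR-92a-3p. Of the other miRNAs with this seed, miR-363-3p was detected on 15 arrays, miR-367-3p on 3 and miR-32-5p on 0.

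**Figure D5:**
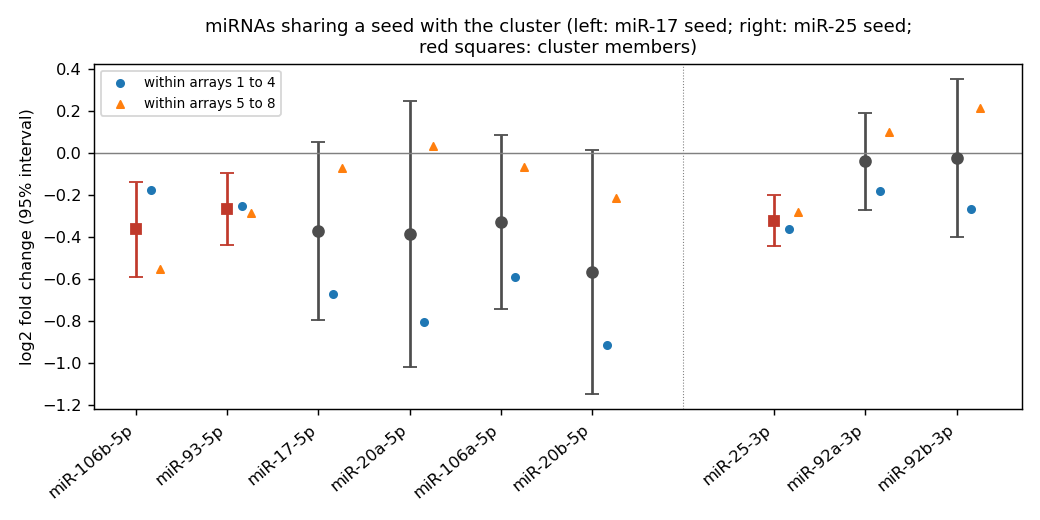
Log2 fold change, telmisartan over control, of cluster members (red squares) and of the other miRNAs with the same seed detected on all arrays (grey circles), with limma 95% intervals, and the changes within arrays 1 to 4 (blue) and 5 to 8 (orange). The relatives on the left changed by -0.92 to -0.59 in arrays 1 to 4 and by -0.22 to 0.03 in arrays 5 to 8, and miR-92a-3p and miR-92b-3p lay near 0.

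Of the 2 paralogous clusters, miR-17-92 had 12 strands on the array, 8 of them detected on all arrays, and 5 fell (median log2 fold change -0.46). The miR-106a-363 cluster had 12, of which 5 were detected on all arrays and 2 fell (median -0.57). No strand of either cluster that was detected on all arrays rose. Over all 382 miRNAs 7.33% were lower. The 2 lists share miR-19b-3p and miR-92a-3p.

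The miRNAs whose log2 normalized values followed each member most closely over the 16 arrays came partly from these clusters. For miR-25-3p they were miR-18a-5p (Pearson's r = 0.87), miR-19a-3p (0.85) and miR-425-5p (0.85). For miR-93-5p they were miR-18b-5p (0.89), miR-615-5p (0.86) and miR-194-5p (0.86). miR-106b-3p was closest to miR-21-3p (0.90), miR-425-5p (0.88) and miR-24-2-5p (0.85). For miR-106b-5p the values were lower, at 0.81 for miR-130b-3p, 0.73 for miR-4286 and 0.71 for miR-188-5p. The r values over 16 arrays hold the difference between the groups. Within controls alone the 3 closest to miR-25-3p were at 0.44, 0.46 and 0.37, and miR-130b-3p was at -0.16 with miR-106b-5p, whereas miR-18b-5p was at 0.80 with miR-93-5p and miR-425-5p at 0.89 with miR-106b-3p.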

How the data were processed

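RNA of OE19 cells was labelled and hybridised to Toray miRNA chips, 1 color per array. Deposited intensity values of each spot were raw and background-subtracted, with spots under the detection level (mean of the trimmed blank spots plus 2 SD) left empty. The authors also deposited normalized intensity values of 382 probes, which quantile normalization of the background-subtracted values rebuilt to a relative difference of 4.88e-10. Log2 of these went into a linear model per probe (lmFit and eBayes of limma 3.58.1, R 4.3.3) for telmisartan minus control. P-values were adjusted by Benjamini-Hochberg over all probes of the table, and the threshold was 0.05. The fits were run on simulated data with independent noise for each probe. These held no effects shared by an array or a set of arrays, so they do not test the fits against such effects. The members and lists were chosen with earlier results of these data known. The miRNAs named are the members, those sharing a seed with a major strand, the paralogous clusters, and the 3 most correlated with each member. Sequences came from RefSeq (GRCh38.p14), where 2281 of 2588 array names matched (88.1%).

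The number of arrays limits the precision. Same-numbered control and telmisartan arrays deviated together in all 8 pairs (r from 0.15 to 0.86). Only arrays 1 and 6 correlated best with their own number, so these values do not establish a pairing. The replicate number was used as a block in an alternative fit. The main fit has no block. The labels do not state a pairing, and the block rests on the data alone. Alternatives were other scalings and background treatments, the exact Mann-Whitney test, an intensity trend, blocks, arrays 1 to 4 or 5 to 8 alone, and each array left out. The setting relative to miR-25-3p, the unscaled background-subtracted relative values, quantile normalization of all raw probes, the ratio of arithmetic means and the median-scaled set differences were chosen after seeing the data.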

Additional observations from a re-analysis of the deposited data

Results flagged for a closer look

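The log2 normalized intensity of miR-93-5p on control array 7 stood apart from the other 7 control arrays. Its gap to the nearest of them was 0.612 of the whole range of the group on the log2 scale, above Dixon's 95% critical value for 8 samples. The lowest or highest array of a group was examined in 8 sets of arrays, and chance alone gives about 1 in 20 of them such a gap.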

How the results depend on the processing

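miR-25-3p, miR-106b-5p, miR-93-5p and miR-106b-3p had negative changes in every alternative run on all 16 arrays and, on the authors' normalized values, within each set of arrays. Over these, the log2 fold changes were -0.36 to -0.13, -0.57 to -0.17, -0.36 to -0.11 and -0.59 to -0.09. Other scalings within single sets gave values outside these ranges, positive for all 4 within arrays 1 to 4 with quantile normalization over detected probes (0.24, 0.41, 0.34 and 0.42). Counts over all miRNAs moved: 37 higher and 28 lower became 0 and 0 with quantile normalization over detected probes, 17 and 14 with median scaling, 18 and 12 without scaling, and 74 and 70 within arrays 1 to 4, and 49 were lower with the sets as a block. Members lower went from 3 to 0, 0 and 0 under the first 3 of these and to 1 within arrays 1 to 4. The cause was not tested.

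With quantile normalization over detected probes no major strand passed (miR-106b-5p -0.21, miR-93-5p -0.11, miR-25-3p -0.21), nor with median scaling (-0.57, -0.36, -0.32; limma adjusted p = 0.0847, 0.364 and 0.157) or no scaling (-0.38, -0.18, -0.13; limma adjusted p = 0.0949, 0.552 and 0.657). miR-106b-5p at -0.36 was also not past the threshold by the exact Mann-Whitney test (adjusted p = 0.0621), and within arrays 1 to 4 (-0.17). miR-93-5p missed it within arrays 1 to 4 (-0.25) and 5 to 8 (-0.28). With the replicate number as a block, miR-106b-3p (-0.43) passed, and so it did with the sets as a block (-0.43). In these fits 9.95% and 12.8% of the 382 miRNAs were lower. The pairing changed no other member's call, and only arrays 1 and 6 correlated best with their own number.

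Leaving out each array in turn gave 30 to 38 miRNAs higher, 21 to 32 lower and 1 to 4 members lower (1 without control array 1 or 8 or telmisartan array 5 or 6). Log2 fold changes were then -0.41 to -0.31 for miR-106b-5p, -0.49 to -0.31 for miR-106b-3p, -0.32 to -0.23 for miR-93-5p, -0.34 to -0.30 for miR-25-3p, -0.60 to -0.07 for miR-93-3p and -0.68 to -0.31 for miR-25-5p. For miR-106b-3p relative to miR-106b-5p they were -0.15 to 0.054.

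In the wider set of probes miR-93-3p was at 0.21 within arrays 1 to 4, and miR-25-5p passed with normexp (-0.084, limma adjusted p = 0.0413). Relative to miR-106b-5p, miR-106b-3p turned to 0.31 on unscaled values with the background left in (limma adjusted p = 0.0237), to 0.10 with it subtracted and to 0.27 within arrays 5 to 8, and within arrays 1 to 4 miR-93-5p turned to -0.076 and miR-25-3p to -0.19. With median scaling the difference between sets turned to 0.54 for miR-106b-5p and 0.71 for miR-93-5p. Dim probes limit what can be said of miR-106b-3p, miR-93-3p and miR-25-5p.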
